A study of Mus musculus with 4 samples.

Results

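Csf1, Il34 and Csf1r encode the 2 ligands and the shared receptor of one signalling axis, and they were the 3 genes followed here of 31053 in the count tables. They were selected on their levels and positive cells in each library across vascular, glial and immune classes of cells, so their levels by class are a description with no test. Each class was gated on marker genes that did not include the 3 members, so "X-like" means only that a cell passed that gate. Csf1 (ENSMUSG00000014599) lies on chromosome 3 from 107741048 to 107760469 on the minus strand, Il34 (ENSMUSG00000031750) on chromosome 8 from 110741829 to 110805924 on the minus strand, and Csf1r (ENSMUSG00000024621) on chromosome 18 from 61100598 to 61132149 on the plus strand (GRCm38, GENCODE).

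The samples were neurovascular cells taken from the brains of wild-type (WT) male C57BL/6 mice aged 12 to 14 weeks with an antibody against CD31, an endothelial surface protein, on magnetic beads. Mice of the chronic social defeat (CSD) group lived for 14 days beside an aggressive CD-1 male, with a daily encounter without the partition. Home cage (HC) mice also had a CD-1 mouse as cage partner for 14 days, behind a partition that was never removed. Each group had 2 libraries, and each library pooled 4 mice, so animals within a library cannot be told apart and p-values measure the spread between pools. Cerebellum, striatum, brainstem and olfactory bulbs had been removed. Endothelial-like cells were 4732 of 12824 gated cells, so the isolate held many other classes.

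CSF1R is a receptor tyrosine kinase of the macrophage lineage. Either ligand, CSF1 or IL-34, makes it dimerise and signal, and microglia, the resident macrophages of the brain, need that signal to survive. IL-34 is best known in the brain as a product of neurons, and CSF1 as a product of glia and of cells at vessels, with levels that rise in inflamed tissue. ADAM17, a membrane protease, releases both CSF1 and the receptor from cell surfaces.

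The 4 libraries held 27297599 to 30361474 UMIs (unique molecular identifiers, 1 per captured transcript), of which 32.6% to 56.8% lay in cells, and the lowest share was in CSD 2. After a minimum of 500 UMIs and 250 genes and at most 25% mitochondrial UMIs, 14415 cells were left, 2553 to 4934 per library with a median of 1408 to 2357 UMIs and 12824 passed exactly 1 gate. Pairs of libraries shared 0 to 9 cell barcodes, where independent barcodes would give 1.07 to 2.96. The pair that shared 9 was CSD 1 and HC 2, with 2.96 expected, and the cause was not tested. Each gate's own markers were all found in its class, and barcodes with at most 100 UMIs gave the level of each member in free RNA. Levels are UMI counts scaled to a fixed total of the class (CPM), read between classes and libraries for 1 gene at a time, because 3′ UMI counts do not rank different genes. In pools of this kind a lower class sum cannot separate fewer expressing cells from less RNA per cell, so shares of cells with a UMI are given beside the sums.

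Csf1, the ligand with the broadest pattern, was found in endothelial-like and microglia-like cells, which held 33.1% ± 9.47 and 31.0% ± 3.59 (SD, n = 4 libraries) of its UMIs in cells. These classes made up 27.8% to 43.2% and 24.9% to 39.8% of the cells of a library, so the UMI shares were of the size of the cell shares. The highest mean level of Csf1, 361.7 CPM, was in venous endothelial-like cells, but the class held only 16 to 30 cells in a library and the mean without CSD 2 was 103.8 CPM. In HC 2 the venous level of 25.9 CPM was below that of no-subclass, arterial and capillary endothelial-like and of microglia-like cells. In the venous class Csf1 was called beside listed genes of endothelial adhesion and NF-kB signalling. In CSD 2, 1 cell held most of their UMIs in that class. Regulation of Csf1 by NF-kB was not tested. The promoter is shown for its letters only. It covers the 250 bases before the start site, chr3:107760470-107760719 on the minus strand of GRCm38.p6 as given by RefSeq, with every match to GGG, any 5 bases and CC, on either strand, in capitals.

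Csf1: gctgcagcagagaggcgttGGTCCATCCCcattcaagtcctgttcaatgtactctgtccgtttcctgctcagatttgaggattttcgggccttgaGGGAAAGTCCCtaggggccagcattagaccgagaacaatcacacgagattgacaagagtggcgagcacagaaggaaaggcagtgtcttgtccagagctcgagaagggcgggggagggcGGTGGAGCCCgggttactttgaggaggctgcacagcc

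That pattern, the outer frame of NF-kB type sites, matched 4 times, and the pair in the middle, GGGAAAGTCC and GGAAAGTCCC, overlap and were read on opposite strands. At least 1 match was found in 45.8% of the 32851 promoters of the table over the same 250 bases, and 4 or more in 4.97%. GGGCGG, the letters of a GC box, matched 2 times in Csf1 and at least once in 32.7% of promoters, while TGANTCA and TATAAA had no match in this window. A match is a run of letters, and no binding was measured here.

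Across all endothelial-like cells Csf1 stood at 44.0 and 67.1 CPM in CSD 1 and CSD 2, and at 29.2 and 31.6 CPM in HC 1 and HC 2. Both CSD libraries were above both HC libraries, and the groups did not overlap, in either direction, for 39% of all genes tested in this class. The log2 fold change was 0.91 (SE 0.22, n = 2 against 2) with an adjusted p = 0.258 in edgeR's quasi-likelihood test over all 10144 genes, so the difference did not pass, and 0.128% of those genes did. Without the library CSD 1 it was 1.18 with an adjusted p = 3.67e-06, but there 1 CSD library stood against 2 and was assumed to vary like the HC pools, as in every fit without a library, and the genes called rose from 13 to 491. The share of cells with a Csf1 UMI overlapped between the groups, at 3.79% and 5.17% in CSD against 5.10% and 3.41% in HC, and the exact permutation test gave p = 0.667, where 0.33 is the smallest that 2 against 2 libraries allow. With each cell thinned to 500 UMIs the mean share was 1.53% ± 0.956 (SD, n = 4), against 0% to 0.243% in choroid plexus epithelial-like cells, where the level was 3.12 ± 0.696 CPM. The median depth was 873 to 1540.5 UMIs in endothelial-like and 11191 to 27436 in choroid plexus epithelial-like cells.

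Endothelial-like cells with several Csf1 UMIs were counted in each library, without thinning. Cells of this class with at least 2000 UMIs numbered 268, 352, 315 and 148 in CSD 1, CSD 2, HC 1 and HC 2. The part of depth in the counts below was not tested. In CSD 1 and CSD 2, 11 and 13 endothelial-like cells held 3 or more Csf1 UMIs each, and these cells carried 56 of 93 and 96 of 149 UMIs. In HC 1 and HC 2 there were 2 and 0 such cells, with 7 of 57 and 0 of 58 UMIs. The class held 1134, 1103, 882 and 1613 cells in CSD 1, CSD 2, HC 1 and HC 2, and the CSD 2 count includes 1 cell with 36 Csf1 UMIs. This is a description of the libraries with no test, and how often such counts separate the groups over all genes was not counted.

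Venous endothelial-like cells, gated on Vwf, Slc38a5, Nr2f2, Ephb4 and Ackr1, held Csf1 at 245.6 and 1136 CPM in CSD 1 and CSD 2 and at 39.9 and 25.9 CPM in HC 1 and HC 2. These levels rest on 25 and 48 UMIs in CSD and 5 and 1 in HC. Both CSD libraries were above both HC libraries (38.4% of genes tested in the class did not overlap), and 6 of 17 and 11 of 19 cells had a Csf1 UMI in CSD against 4 of 30 and 1 of 16 in HC. Csf1 rose with a log2 fold change of 4.10 (SE 0.81, n = 2 against 2) and an adjusted p = 0.046 in edgeR's quasi-likelihood test, 1 of 7 genes called of 1311 tested in this class (0.534%). Csf1 passed the filter on low counts through the CSD libraries alone, so the group where it was high admitted it to the test. Without that filter the adjusted p of the same test was 2.09e-07. That fit rests on the same 5 and 1 UMIs in HC and does not make the call firmer. The exact permutation test of the shares gave p = 0.333.

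A single cell of CSD 2 held 36 of the 48 Csf1 UMIs. That cell had 18932 UMIs and 4208 genes, was not marked as a doublet, carried no Col1a1 or Acta2 UMI, and also held 223 of the 292 Vcam1, 180 of the 194 Lcn2 and 85 of the 96 Ackr1 UMIs of its class and library. Without the endothelial-like cell of each library with the most Csf1, the venous level in CSD 2 was 514.2 CPM, above both HC libraries. The fold change was then 3.09 with an adjusted p = 0.150 in edgeR's quasi-likelihood test. Only in CSD 2 was that cell venous-like. In CSD 1 it had no subclass and held 9 Csf1 UMIs, so the venous level of 245.6 CPM there was unchanged. The venous levels of HC 1 and HC 2 were unchanged as well. The gate marker Ackr1, a chemokine-binding receptor of venules, itself stood at 147.3 and 2271 CPM in CSD and had no UMI in either HC library, and with Ackr1 taken out of the gate the fold change was 4.06 with an adjusted p = 0.0843. With cells of at least 1000 UMIs the adjusted p was 0.226, and with 1 more marker required 0.42.

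Endothelial-like cells that met no subclass gate held Csf1 at 60.9 and 102.2 CPM in CSD against 32.0 and 37.0 CPM in HC. The log2 fold change was 1.28 (SE 0.29) with an adjusted p = 0.115 in edgeR's quasi-likelihood test, where 0.230% of 7812 genes passed, and without CSD 1, where the genes called rose from 18 to 245, it was 1.59 with an adjusted p = 2.33e-06. Capillary endothelial-like cells went the other way in value, at 16.7 and 14.7 CPM in CSD against 23.7 and 27.2 CPM in HC. That difference did not pass either, with a log2 fold change of -0.66 (SE 0.33) and an adjusted p = 0.622, and 0.0611% of 8180 genes passed. Arterial endothelial-like cells held 13.4 and 17.2 CPM in CSD against 33.9 and 36.8 CPM in HC on 3 to 9 UMIs per library, too few for the filter. Free RNA held Csf1 at 6.67, 14.0, 9.75 and 9.58 CPM in CSD 1, CSD 2, HC 1 and HC 2. The capillary and arterial levels of CSD 2 were thus near free RNA, and its part in these levels was not tested. The CSD and HC values of Csf1 did not overlap in these 3 subclasses, and neither did those of 38.1%, 39.2% and 34.2% of the genes tested in no-subclass, capillary and arterial cells.

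**Figure D1:**
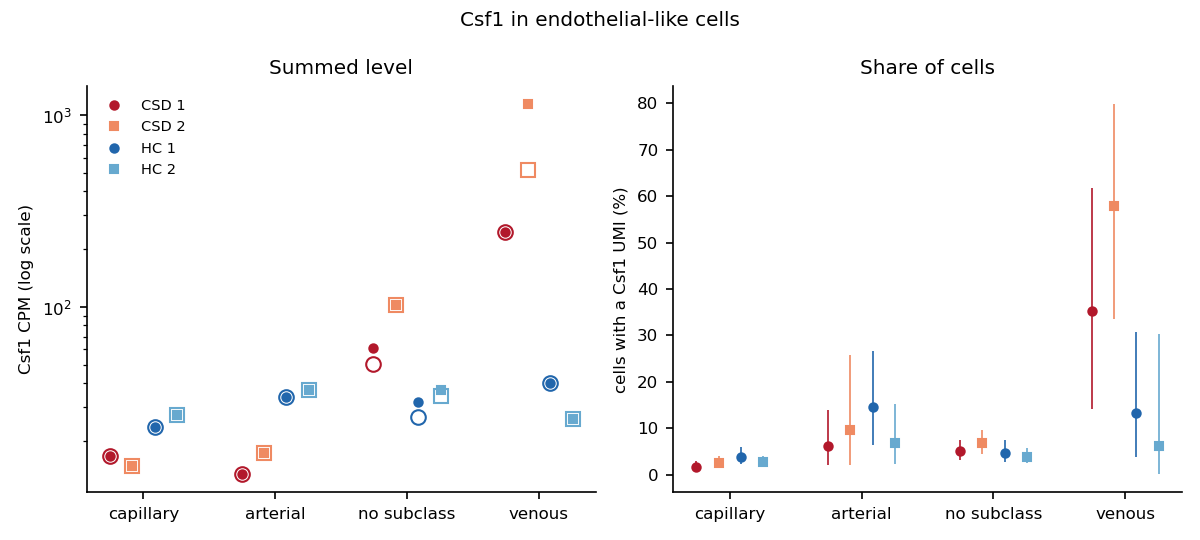
Csf1 in the endothelial-like subclasses of each library. Left: CPM of the summed counts on a log axis, with filled symbols for all cells and open symbols with the cell of each library that held the most Csf1 left out. That cell was venous-like in CSD 2 and had no subclass in the other libraries. Right: percent of cells with a Csf1 UMI, with exact 95% binomial (Clopper-Pearson) intervals that cover counting error only. The CSD libraries (red) lie above HC (blue) in venous and no-subclass cells and below it in capillary and arterial cells, and the open CSD 2 symbol in venous cells sits at 514.2 CPM.

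The effect of CSD on Csf1 was then compared between classes within the same libraries. It was larger in venous endothelial-like than in microglia-like cells by 3.999 on the log2 scale (SE 0.76), with an adjusted p = 0.0228 in edgeR's quasi-likelihood test of the interaction, and Csf1 was the 1 gene called of 1227 (0.0815%). That call was lost without CSD 1 (4.85, adjusted p = 0.448), without CSD 2 (3.05, adjusted p = 0.4) and without the cell of each library with the most Csf1 (3.33, adjusted p = 0.997). Between venous and capillary endothelial-like cells the difference of effects was 4.71 (SE 1.19) with an adjusted p = 0.636, and it passed only in fits with 1 library in an arm, without CSD 1 (5.75, adjusted p = 0.000113) and without HC 2 (4.47, adjusted p = 0.0267). Between no-subclass and capillary cells it was 1.99 (SE 0.41) with an adjusted p = 0.136, and 0.0128 without CSD 1. Between venous and no-subclass cells it was 2.73 (SE 0.88) with an adjusted p = 0.601, where 0.0763% of 1310 genes passed. Between all endothelial-like and microglia-like cells it was 0.98 (SE 0.30) with an adjusted p near 1. In each comparison with venous cells Csf1 was admitted by the CSD libraries alone, which took it past the low-count filter there.

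Genes of endothelial adhesion and NF-kB signalling, from a list chosen with earlier results of these data known, were read in the same classes. In venous endothelial-like cells 6 of the 10 listed genes could be tested, 3 rose and none fell (0.534% of all genes were called), and the median log2 fold change of the 6 was 2.18, beside 0.0023 over all genes of the class. The 3 were Vcam1, which encodes an adhesion molecule for leukocytes (2.30, adjusted p = 0.044), Cxcl1, a neutrophil chemokine (2.89, adjusted p = 0.0102), and Lcn2, an iron-sequestering protein of acute inflammation (6.42, adjusted p = 0.00439). None of the 3 calls held with cells of at least 1000 UMIs (adjusted p of 0.133 to 0.207), with 1 more marker (0.236 to 0.42) or with Ackr1 out of the gate (0.0558 to 0.0843), and that of Vcam1 was lost without HC 2 (0.053). Without the cell of each library with the most Csf1, which in CSD 2 held 184 of the 190 Cxcl1 UMIs, Vcam1 was at 1.49 (adjusted p = 0.24) and Cxcl1 at 1.45 (adjusted p = 0.48), while Lcn2 was at 4.58 (adjusted p = 0.00156). Lcn2 had 89 and 194 UMIs in CSD against 4 and 1 in HC, and in every class given here it passed the filter on low counts through the CSD libraries alone. In cells with no subclass 4 of 6 rose (0.23% of all genes were called), namely Lcn2 (5.19, adjusted p = 0.00109), Cxcl1 (2.12, adjusted p = 0.00807), Vcam1 (1.73, adjusted p = 0.00602) and Cebpd, a transcription factor of the acute-phase response (1.35, adjusted p = 0.0327). The chemokine gene Cxcl2, from the acute activation list, rose there as well (2.66, adjusted p = 0.00393). Cxcl2 had 57 and 49 UMIs in CSD against 9 and 6 in HC, and like Lcn2 it passed the filter on low counts through the CSD libraries alone. These 5 calls held without the cells with the most Csf1 (adjusted p of 0.000665 to 0.00685). In CSD 2 that cell was venous-like, so the no-subclass sums of CSD 2 were unchanged and were not checked in this way. The 5 calls were lost with no filter on low counts (0.173 to 0.743), and those of Cxcl1 and Cebpd were lost with cells of at least 1000 UMIs (0.129 and 0.244). Over all endothelial-like cells Lcn2 (5.57, adjusted p = 0.00148) and Cxcl1 (1.80, adjusted p = 0.0168) rose, 2 of 7 tested beside 0.128% of all genes, and neither passed without the cells with the most Csf1 (adjusted p = 0.056 and 0.0612). In pericyte-like cells Cebpd rose (1.69, adjusted p = 0.0292), 1 of 3 tested and the 1 gene called of 2651 (0.0377%), and the call was lost with 1 more marker (adjusted p = 0.058) and without HC 1 (0.0962).

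Endothelial-like cells with and without a Csf1 UMI were compared at equal depth, after thinning each cell to 1000 UMIs, and this is a description because only 16, 20, 16 and 22 cells in CSD 1, CSD 2, HC 1 and HC 2 kept a Csf1 UMI. Icam1, an adhesion molecule, was at 1563, 1500, 437.5 and 500 CPM in the cells with Csf1, and at 85.4, 78.9, 69.3 and 74.5 CPM in the others. It was higher beside Csf1 in all 4 libraries. Vcam1 was at 3313, 2600, 312.5 and 181.8 CPM with Csf1 against 98.0, 63.4, 75.9 and 96.4 CPM without. The HC values of Icam1 and Vcam1 beside Csf1 come from 16 and 22 cells of 1000 UMIs each and rest on few UMIs. Lcn2 was at 1500 and 800 CPM with Csf1 in CSD 1 and CSD 2, on 24 and 16 UMIs, and had no UMI in such cells of either HC library. Summed over the 10 listed genes, cells with Csf1 held 11688 and 11050 CPM in CSD against 2536 and 2539 CPM in cells without, and 2375 and 1773 CPM in HC against 1480 and 1772 CPM. The gap between cells with and without Csf1 was wider in value in both CSD libraries than in both HC libraries. That list was chosen with earlier results of these data known, and it holds Lcn2, Cxcl1, Vcam1 and Cebpd, called higher in CSD above. The wider gap is therefore not separate evidence, and how often other genes show such a gap was not counted. Icam1 and Vcam1 were also higher in venous than in no-subclass cells in each library, with Vcam1 at 1005 against 130.6 CPM in HC 1. Subclasses were not matched between cells with and without Csf1, and their part in the difference was not tested. The cell of CSD 2 with the most Csf1 was not left out.

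Microglia-like cells, which carried the receptor, also held Csf1, at 26.3, 30.7, 26.2 and 36.1 CPM in CSD 1, CSD 2, HC 1 and HC 2 (29.8 ± 4.68, SD). The groups overlapped, with a log2 fold change of -0.09 (SE 0.27) and an adjusted p near 1, and no gene of 9929 passed in these cells (0%), where 121 had an unadjusted p under 0.05 and DESeq2 called 1. A Csf1 UMI was found in 4.13%, 8.49%, 5.00% and 4.93% of cells, and the highest share was in the library with the deepest microglia-like cells, CSD 2, at a median of 4898 UMIs. Thinned to 500 UMIs the shares were 1.29% to 2.10%, and a second draw kept a Csf1 UMI in 15 of 1624, 10 of 636, 12 of 900 and 26 of 1238 cells. A few cells held several copies, up to 9 in HC 1, and 2 to 8 cells per library had 3 or more. In border-associated macrophage-like cells, which also carried the receptor, Csf1 had 1 UMI over 120 cells.

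Few genes separated microglia-like cells with a Csf1 UMI from the others at equal depth. After thinning to 2000 UMIs, 35, 28, 29 and 31 cells had Csf1 in CSD 1, CSD 2, HC 1 and HC 2, and edgeR's quasi-likelihood test with library as a covariate called 3 of 5368 genes (0.0559%). The acute activation list gave 2 calls upward and none downward among its 12 genes, the chemokine genes Ccl4 and Ccl3, with a list median of 0.22 beside -0.05 over all genes. Ccl4 stood at 2828, 3480, 6458 and 5076 CPM with Csf1 against 2638, 2905, 3641 and 3488 CPM without, a log2 fold change of 0.45 (SE 0.08) with an adjusted p = 0.00507. Ccl3 stood at 2858, 2351, 4461 and 2238 CPM against 2196, 2011, 2815 and 1824 CPM, a log2 fold change of 0.41 (SE 0.08) with an adjusted p = 0.0216. Both were higher in 4 of 4 libraries. Leaving out any 1 library left Ccl3 short of the threshold (adjusted p of 0.135 to 0.552), and leaving out CSD 2, HC 1 or HC 2 did the same for Ccl4 (0.173, 0.439 and 0.200).

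The other called gene was Hbb-bs, a beta-globin gene, at 549.4, 25.8, 772.7 and 2.27 CPM without Csf1 against 14.7, 0, 33.3 and 0 CPM with it (log2 fold change of -4.81, adjusted p = 5.31e-12), so its level without Csf1 was far higher in CSD 1 and HC 1 than in the other libraries. With 1 more marker in the gate, and without HC 1, no gene was called lower beside Csf1, so the Hbb-bs call was lost there. Csf1r itself was at 1964, 2073, 1981 and 2274 CPM in cells with Csf1 and at 2130, 2436, 2051 and 2404 CPM in cells without, lower in 4 of 4 libraries in value. The difference did not pass, at -0.12 (SE 0.09) with an adjusted p = 0.943. None of the 4 tested genes of the disease-associated microglia list and none of the 8 immediate-early genes passed.

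**Figure D2:**
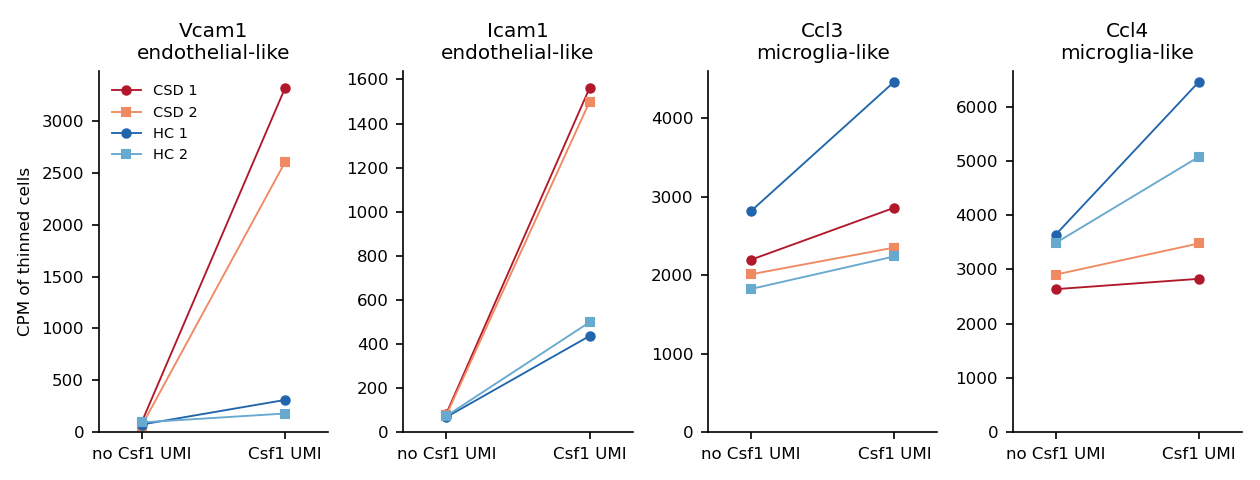
Levels of 4 genes in cells without (left of each panel) and with (right) a Csf1 UMI, in CPM of cells thinned to 1000 UMIs (endothelial-like, Vcam1 and Icam1) or 2000 UMIs (microglia-like, Ccl3 and Ccl4), with 1 line per library. Vcam1 reached 3313 and 2600 CPM beside Csf1 in the CSD libraries (red) against 312.5 and 181.8 CPM in HC (blue), while Ccl3 and Ccl4 rose along every line.

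Il34, the second ligand, had its highest level in pericyte-like cells. In pericyte-like cells, the contractile cells that wrap capillaries, it stood at 326.5, 367.4, 490.7 and 418.2 CPM in CSD 1, CSD 2, HC 1 and HC 2 (400.7 ± 70.8, SD). A UMI was found in 29.0%, 43.1%, 46.4% and 30.1% of these cells, which had a median of 863.5 to 1558 UMIs. In microglia-like cells, with a median of 1863.5 to 4898 UMIs, 0 of 1624, 0 of 636, 1 of 900 and 3 of 1238 cells had an Il34 UMI, and the counts of 0 allow shares of up to 0.185% and 0.472% of cells with a UMI. Free RNA held 8.01 to 13.7 CPM.

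Fibroblast-like cells came next for Il34 at 187.9, 157.6, 105.9 and 139.4 CPM (147.7 ± 34.3, SD), on 4 to 15 UMIs from 12 to 30 cells. All 4 pericyte-like values were above all 4 fibroblast-like values, and those were above all values of the next classes. Arterial smooth muscle-like cells, the contractile layer of arterioles, held 61.2, 46.4, 41.1 and 42.4 CPM (47.8 ± 9.26, SD). Arterial endothelial-like cells held 48.4, 97.4, 15.1 and 55.2 CPM (54.0 ± 33.8, SD), which overlapped with smooth muscle-like cells. Capillary, venous and no-subclass endothelial-like cells were at 4.79, 2.46 and 7.41 CPM on average, at or below free RNA.

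Il34 was also read against the 6 pericyte markers. Per 100 marker UMIs, pericyte-like cells held 1.39 to 2.27 Il34 UMIs in the 4 libraries, free RNA 1.80 to 4.05, and arterial endothelial-like cells 1.91 to 4.55, with 48 Il34 UMIs beside 1242 marker UMIs in all. Arterial smooth muscle-like cells held 5.39 to 15.1 and fibroblast-like cells 10.1 to 28.3 per 100. The first 3 ranges overlapped, as did the last 2, and the last 2 lay above the first 3. Pericyte markers thus accompanied Il34 in arterial endothelial-like cells at 1274 CPM, and their part in the Il34 level there was not tested. Cells that met no gate, or 2 of them, held 28.4% ± 7.54 of the Il34 UMIs in cells, pericyte-like cells 33.1% ± 14.6 and arterial smooth muscle-like cells 15.1% ± 6.72 (SD, n = 4).

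None of the Il34 comparisons between CSD and HC passed. In pericyte-like cells the CSD values were the lower ones with no overlap (33.6% of genes tested there did not overlap), with a log2 fold change of -0.33 (SE 0.22) and an adjusted p = 0.946, where 0.0377% of 2651 genes passed. In arterial smooth muscle-like cells the CSD values were the higher ones with no overlap (29% of genes tested there), at 0.37 (SE 0.31) with an adjusted p = 0.999, and no gene of 6066 passed (0%), where 165 had an unadjusted p under 0.05 and DESeq2 called 0. In arterial endothelial-like cells the groups overlapped, at 1.06 (SE 0.54) with an adjusted p = 0.781, where 0.177% of 3948 genes passed. Neuron-like cells, the class in which the ligand is best known, numbered 0 to 13 per library, so the neuronal source could not be read from these samples.

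**Figure D3:**
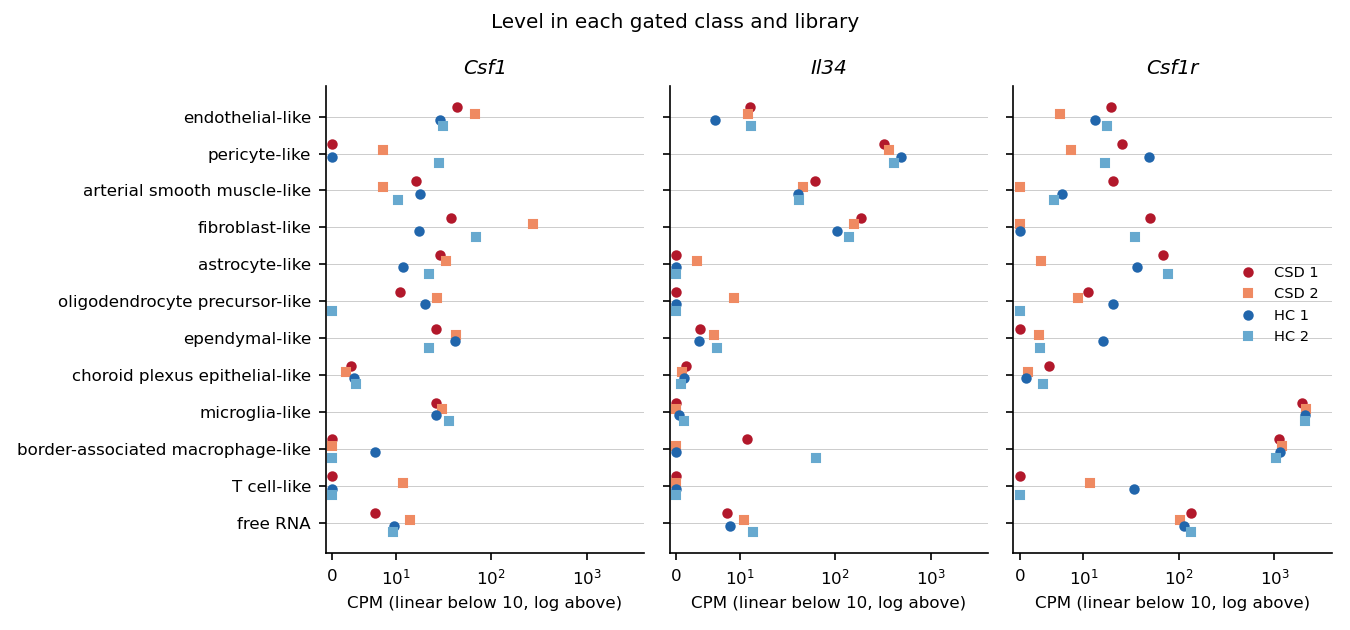
Level of Csf1, Il34 and Csf1r in 11 gated classes and in free RNA (barcodes of at most 100 UMIs), in CPM on an axis that is linear below 10 and logarithmic above, with 1 symbol per library. Csf1 is spread over many classes, Il34 peaks in pericyte-like cells at 326.5 to 490.7 CPM, and Csf1r is at 1931 to 2155 CPM in microglia-like and 1033 to 1208 CPM in border-associated macrophage-like cells. Levels are to be compared within a panel.

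Csf1r, the receptor, had its highest levels in the macrophage classes. Microglia-like cells held it at 1931, 2155, 2062 and 2079 CPM in CSD 1, CSD 2, HC 1 and HC 2 (2057 ± 93.1, SD), and 92.8% to 96.1% of them had a UMI, or 59.5% to 64.1% after thinning to 500 UMIs. They accounted for 92.9% ± 2.53 of all Csf1r UMIs in cells. T cell-like cells, which should lack the receptor, had a UMI in 4.13% of cells on average at a median of 1219 to 4082 UMIs. Border-associated macrophage-like cells, the macrophages of vessel sheaths, meninges and choroid plexus, held 1124, 1208, 1132 and 1033 CPM (1124 ± 71.5, SD) in 40, 5, 56 and 19 cells. All 4 microglia-like values were above all 4 of these. Ccr2 monocyte-like cells held 178.8, 315.7, 760.5 and 146.2 CPM, in 2 to 8 cells per library. Neuron-like cells held 114.3 to 316.0 CPM in the 3 libraries that had any, on 18 UMIs, and astrocyte-like cells 46.2 ± 33.6 CPM (SD, n = 4). No member passed the low-count filter in astrocyte-like cells, where 0.356% of 1405 genes passed the test.

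Other classes had Csf1r at low levels, and the microglial markers found with it were counted beside it. Free RNA held 102.7 to 133.3 CPM of Csf1r, and 11.4 to 13.2 Csf1r UMIs per 100 UMIs of the 9 microglial markers. Microglia-like cells had 12.2 per 100, endothelial-like cells 12.3 (113 beside 922 UMIs) and pericyte-like cells 11.7 (12 beside 103 UMIs). Over all libraries these 3 classes and free RNA thus had like ratios of receptor to microglial markers while the mean level of Csf1r ranged from 14.1 to 2057 CPM, although single libraries ranged from 8 to 14.3 in endothelial-like and from 6.82 to 29.4 in pericyte-like cells. Other classes differed. Neuron-like cells had 29.0 per 100 (18 beside 62 UMIs) and choroid plexus epithelial-like cells 5.23 (79 beside 1511 UMIs). Astrocyte-like cells had 19.1 (18 beside 94 UMIs) and arterial endothelial-like cells 19.5 (16 beside 82 UMIs). Ependymal-like cells had 7.80, fibroblast-like cells 4.65 and T cell-like cells 3.23. Border-associated macrophage-like cells had 106.3 per 100 over all libraries, 88 to 133.8 in single libraries, and Ccr2 monocyte-like cells 48.4 (30 beside 62 UMIs).

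**Figure D4:**
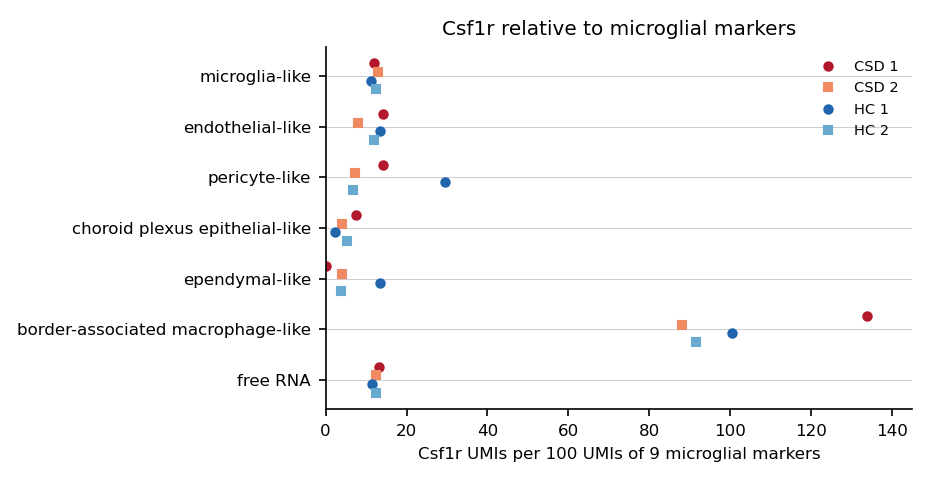
Csf1r UMIs per 100 UMIs of the 9 microglial gate markers in 6 classes and in free RNA, with 1 symbol per library. Microglia-like cells and free RNA lie between 11.2 and 13.2, pericyte-like cells scatter from 6.82 to 29.4, and border-associated macrophage-like cells lie between 88 and 133.8.

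Between CSD and HC the receptor in microglia-like cells differed by a log2 fold change of 0.03 (SE 0.30, n = 2 against 2) with an adjusted p near 1, and the groups overlapped. In choroid plexus epithelial-like cells, where 0.0173% of 11565 genes passed, Csf1r was at 0.58 (SE 0.54) and Csf1 at -0.44 (SE 0.38), each with an adjusted p near 1. Border-associated macrophage-like cells were too few in CSD 2 for a test, and stood at 1166 ± 59.5 CPM in CSD and 1083 ± 70.0 CPM in HC (SD, n = 2). The rest of the pathway in microglia-like cells was read from lists chosen with earlier results of these data known. None of 19 tested effectors and adaptors of the receptor passed, with a median log2 fold change of 0.10 beside 0.0026 over all genes, and none of 8 negative regulators, 9 myeloid transcription factors, 6 shedding and other receptor genes, 5 other colony-stimulating factor genes or 6 cell cycle genes did. In unadjusted terms 3 of these 53 genes had a p under 0.05, beside 121 of 9929 over all genes, with values higher in CSD, namely Cebpb (0.86, SE 0.32) and Cebpa (0.71, SE 0.26), transcription factors of myeloid cells, and Ccnd3 (0.63, SE 0.23), a cyclin of cell cycle entry. Adam17, the sheddase, was at -0.10 (SE 0.22).

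The genes whose levels over 13 classes were most like each member were listed by Pearson's r of the mean log2(CPM + 10), a description over classes that share libraries. For Csf1r they were C1qb, Tbxas1, Pld4, Fcrls and Dok3, with r between 0.988 and 0.991. For Il34 they were Foxd1, Gm15261, Cd248, Lamc3 and C1qtnf2, with r between 0.957 and 0.982. For Csf1 they included Ptdss1, Eps15l1, Ptgfrn and Myo9a, with a lower r of 0.803 to 0.845. In the order of mean levels each class overlapped with the next for Csf1 throughout, whereas for Il34 the first 2 steps and for Csf1r the first 2 steps showed no overlap.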

How the data were processed

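Single cells of 4 libraries (CSD 1, CSD 2, HC 1, HC 2) were measured with 10x Genomics 3′ v3.1 chemistry. The authors deposited unfiltered UMI counts per gene and barcode, aligned to GRCm38 (mm10). The sources name different Cell Ranger versions, 3.1.0 in the matrix headers and 4.0 in the submitters' processing notes, while the study's methods name a later release, and which made the matrices is not settled here. The members and gene lists were chosen with earlier results of these data known.

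Cells had at least 500 UMIs and 250 genes and at most 25% mitochondrial UMIs. A cell joined a class when it held at least 2 of its markers, at least 25% of the mean marker share of cells rich in that class's markers, and a second class at no more than 40% of the first. Endothelial-like cells were split on the marker number and the second-class rule alone. Of the cells, 1150 met 2 classes, 441 met too few markers and 350 lay near a limit. Scrublet (scanpy 1.11.5) marked 4 to 73 cells per library, which were kept.

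Counts were summed per library and class and tested with edgeR 4.0.16 (R 4.3.3) by quasi-likelihood, with filterByExpr, TMM and Benjamini-Hochberg adjustment over all genes of the class at 0.05, in 14 classes with at least 10 cells in every library. The study's own tests ran over cells; libraries were used as replicates here. DESeq2 1.42.0, other scalings, filters, gates, a replicate block and leaving out each library were alternatives. Alternatives chosen after seeing the data were subclasses from 1 marker, Ackr1 out of the venous gate, and leaving out the endothelial cell with the most Csf1 of each library. Named genes were the members, the 5 genes most like each (1 of those for Csf1 is not reported here), list genes that passed (up to 5 per list and class by fold), and in Csf1-detected cells up to 5 other genes each way that passed with 1 direction in all libraries. Genes with an unadjusted p under 0.05 in the microglial lists, Adam17, and Icam1 in Csf1-detected cells were named after their values were seen. A level from 3 UMIs is the floor of a library, and intervals are exact at 95%; both cover counting error only. Scripts were tested on simulated data.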

Additional observations from a re-analysis of the deposited data

Results flagged for a closer look

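The effect of CSD on Csf1 differed between 2 classes of the same libraries. In venous endothelial-like cells it was larger than in microglia-like cells by 3.999 on the log2 scale (SE 0.76, adjusted p = 0.0228 in edgeR's quasi-likelihood test of the interaction over 1227 genes). Over its 10 alternatives the adjusted p ranged from 0.0307 to 0.997, and the difference had the same sign in each. The venous class held 16 to 30 cells per library, and 36 of its 73 Csf1 UMIs in CSD came from 1 cell, whose part in the result is given by the value without it, 3.33 with an adjusted p = 0.997. Csf1 passed the low-count filter in venous cells through the CSD libraries alone. The group where Csf1 was high thus admitted it to this test. Groups of 2 libraries were too small to look for a library that stands apart.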

How the results depend on the processing

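For Csf1 in venous endothelial-like cells the log2 fold change of 4.10 kept its sign under all 16 alternatives, and 12 kept the call. Among those 12, the complexity filter and the fit without marked doublets repeated the main fit, with 7 called of 1311 genes, and so add no support. The fits without 1 library and the fit with no filter are also among them and do not make the call firmer. The call was lost with cells of at least 1000 UMIs (3.98), with 1 more marker (4.12) and, both chosen after seeing the data, with Ackr1 out of the gate (4.06) and without the cell of each library with the most Csf1 (3.09); without 1 library it ranged from 2.72 to 4.90 and passed, but in such fits the lone library of an arm is assumed to vary like the other group, and the venous genes called reached 82, so these p-values do not show that the call is stable. Genes called there numbered 7, and 0 to 82 over the alternatives; in all endothelial-like cells 13, and 4 to 491; in no-subclass cells 18, and 1 to 245. Same-numbered libraries deviated together with r = 0.057 in endothelial-like and 0.43 in microglia-like cells, and nothing says that a number marks a shared batch. With the replicate block Csf1 passed in endothelial-like (0.89, adjusted p = 0.0267) and no-subclass cells (1.26, adjusted p = 0.00979); without 1 library these ranged from 0.61 to 1.18 and from 0.90 to 1.59. The venous against microglia difference lost its call with DESeq2 size factors (4.03), 1 more marker (3.79) and without the top Csf1 cells (3.33). It also lost its call without CSD 1 (4.85) and without CSD 2 (3.05), the highest and lowest values of the fits without 1 library.

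Values that never passed changed sign as follows, and the cause was not tested. For Csf1 in microglia-like cells it was 0.0012 with 1 more marker and -0.33 to 0.23 without 1 library, and in ependymal-like cells -0.019 with no filter and -0.41 to 0.59. For Csf1r in microglia-like cells it was -0.021 with library totals and -0.14 to 0.18 without 1 library, in endothelial-like cells 0.082 at 1000 UMIs and -1.23 to 0.42, in no-subclass cells 0.16 with subclasses from 1 marker and -0.53 to 0.18, in capillary cells -1.60 to 0.53 and in choroid plexus epithelial-like cells -0.78 to 1.86. For Il34 in choroid plexus epithelial-like cells it was -0.19 to 0.77. Differences of shares of cells with a UMI, CSD minus HC in percentage points, changed sign for Csf1 in endothelial-like cells (-0.76 at 1000 UMIs, -0.62 to 1.07 without 1 library) and microglia-like cells (-0.21 thinned, -0.84 to 3.53), for Il34 in pericyte-like cells (-10.4 to 5.91) and for Csf1r in microglia-like cells (-2.27 to 0.37). Genes called between Csf1-detected and undetected microglia-like cells numbered 3, then 15 without thinning, 6 with another seed, 9 without marked doublets, and 0 to 2 without 1 library. All mean levels moved by less than their SD over libraries, a limit that a wide SD meets easily. For Csf1 in venous endothelial-like cells the SD of 525.6 CPM exceeded the mean of 361.7 CPM. That mean was 103.8 CPM without CSD 2.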
